A study of Rattus norvegicus with 12 samples.

Results

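The phagocyte NADPH oxidase and antioxidant defence were followed through 8 genes across 12 rat brain libraries of a study on chronic orofacial pain. They were chosen by name from a table of 34525 genes, and each of the 8 names stood for a single gene in it: Cybb, Cyba, Ncf1, Ncf4 and Rac2 of the oxidase, and Hmox1, Gpx1 and Sod2 of the antioxidant genes. RNA of 2 regions was sequenced. The thalamus relays sensory input to cortex. The rostral ventral medulla, or RVM, lies in the brainstem and modulates pain. The 4 groups were thalamus of rats given CFA, thalamus of rats given 0.9% saline, RVM of rats given CFA and RVM of rats given 0.9% saline, with 3 libraries each. CFA usually stands for complete Freund's adjuvant, an emulsion that raises lasting local inflammation, but the labels give only the letters. Strain, sex, age, genotype, dose, injection site and time are not in the labels, and they do not name the animal behind each library, so the spread behind each p-value may be technical.

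The phagocyte NADPH oxidase carries electrons from NADPH across a membrane to oxygen and so makes superoxide. Cybb, the catalytic subunit, and Cyba, its smaller partner, sit in the membrane, while Ncf1, the organizer, Ncf4, a lipid-binding subunit, and a Rac GTPase (Rac2 in blood cells) join them from the cytosol when the cell is activated. In brain the complex is known mainly from microglia and from myeloid cells that enter from blood. Sod2, in mitochondria, turns superoxide into hydrogen peroxide, Gpx1 reduces peroxides with glutathione, and Hmox1 is the inducible enzyme that breaks down heme.

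The members lie apart in the genome, except for one pair. As the deposited table lists them, with no build named, Ncf4 (chr7:119482272-119499425, + strand) and Rac2 (chr7:119783849-119797098, − strand) were near each other on chromosome 7, and Cyba (chr19:55249616-55257876, − strand) and Hmox1 (chr19:14508616-14515456, + strand) were far apart on chromosome 19. Cybb (chrX:14578264-14612547, + strand), Ncf1 (chr12:25497104-25506300, + strand), Gpx1 (chr8:117117430-117118522, + strand) and Sod2 (chr1:47914759-47921587, − strand) were each on another chromosome. RefSeq promoter sequences (build GRCr8, 250 bases before and 50 after the transcript start) were at hand for 5 of the 8 members, Cybb, Cyba, Ncf1, Gpx1 and Sod2. Those of the 3 oxidase genes among them are shown, each of which was called higher in thalamus after CFA in the data that follow. The part of any motif in those levels was not tested. They are the windows of Cybb (chrX:16065016-16065315, − strand in GRCr8, although the deposited table, of unnamed build, lists the gene on the + strand), Cyba (chr19:67404165-67404464, − strand) and Ncf1 (chr12:28121635-28121934, + strand), read 5′ to 3′ along the gene, and capitals mark the motif matches described below them.
Cybb: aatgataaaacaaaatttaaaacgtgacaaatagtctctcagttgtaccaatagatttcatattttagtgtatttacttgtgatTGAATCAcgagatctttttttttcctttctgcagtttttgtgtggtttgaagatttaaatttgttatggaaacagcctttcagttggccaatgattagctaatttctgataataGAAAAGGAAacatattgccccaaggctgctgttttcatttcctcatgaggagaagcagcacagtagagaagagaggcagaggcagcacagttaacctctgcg
Cyba: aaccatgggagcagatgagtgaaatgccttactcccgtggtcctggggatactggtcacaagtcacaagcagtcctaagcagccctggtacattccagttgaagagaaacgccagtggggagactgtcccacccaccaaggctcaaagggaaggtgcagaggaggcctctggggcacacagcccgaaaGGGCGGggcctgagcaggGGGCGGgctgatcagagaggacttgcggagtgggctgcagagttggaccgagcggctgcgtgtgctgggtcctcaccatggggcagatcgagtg
Ncf1: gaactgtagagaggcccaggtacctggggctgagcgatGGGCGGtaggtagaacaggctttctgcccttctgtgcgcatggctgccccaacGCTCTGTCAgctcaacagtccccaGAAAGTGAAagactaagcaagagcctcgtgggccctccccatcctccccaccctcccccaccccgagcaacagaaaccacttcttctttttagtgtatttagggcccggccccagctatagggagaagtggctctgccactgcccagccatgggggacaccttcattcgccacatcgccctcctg
Cybb had an interferon-stimulated response element (GAAANNGAA) that began 52 bases before the start, and an AP-1 site (TGANTCA) at −166. Ncf1 had the same interferon motif at −135, and an antioxidant response element (TGACNNNGC) on the other strand at −159. The Sp1 box GGGCGG occurred in Cyba, at −62 and −44, and in Ncf1, at −212. Sod2 held an antioxidant element at −35 on the other strand and Sp1 boxes at −223 and 2, and Gpx1 held an Sp1 box at −65. All 8 motifs were searched on both strands, as the exact letters given, with N for any base. The PU.1 letters GAGGAAGT and the ETS letters AGGAAGT that lie within them matched none of the 5 windows. The NF-kB letters GGANTTTCC and the STAT letters TTCNNNGAA also matched none. Shorter or variant forms of these sites were not searched, so sites of these kinds may be present. Among 33469 promoters of that length, 9.71% held the interferon motif, 7.33% the AP-1 letters, 12.1% the antioxidant element and 33.1% the Sp1 box. The PU.1 letters were in 2.42% of them, the ETS letters AGGAAGT in 8.41%, the NF-kB letters in 1.28% and the STAT letters in 8.87%. The window of Cybb was poor in G and C, at 35.7%, against 61% in Cyba, 59.7% in Ncf1, 58.7% in Gpx1 and 72% in Sod2, with a median of 51.7% over all promoters.

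The libraries held 14.94 to 19.24 M reads assigned to genes, and a gene with 0 reads could have up to 3 reads, or 0.156 to 0.201 CPM (reads scaled to 1 M per library), by counting error alone. The region labels held in the marker genes, with 7 thalamic markers summing to 123 to 482 FPKM (fragments per kilobase of gene length, scaled for library size) in thalamus after CFA, and to 348 to 856 FPKM in thalamus after saline, against 68.4 to 77 in RVM CFA and 72.7 to 87 in RVM saline. A set of 8 hindbrain markers summed to at most 1.18 FPKM in any thalamus library and to at least 113 in any RVM library. In both thalamus groups library 1 had the lowest thalamic marker sum, at 123 FPKM after CFA and 348 FPKM after saline. Libraries 2 and 3 stood at 482 and 408 FPKM after CFA, and at 856 and 715 FPKM after saline. The median difference of these markers in thalamus, CFA minus saline, was −1 log2, and 0 of 7 were called. By sums of choroid plexus or microglia markers, 3 of the 12 libraries stood apart. Thalamus CFA libraries 1 and 2 had choroid plexus markers at 10289 and 2468 FPKM in sum, against 15.3 in CFA library 3 and 5.51 to 28.2 in thalamus saline. RVM CFA library 2 had 13 microglia markers at 451 FPKM in sum, against 1452 and 1226 in RVM CFA libraries 1 and 3, and 270 to 330 in RVM saline.

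In the thalamus, all 5 oxidase genes were higher after CFA, by 6.17-fold for Cyba and up to 37.7-fold for Cybb in mean FPKM. Hmox1 was 4.33-fold and Gpx1 1.88-fold higher, and Sod2, at 1.15-fold, did not pass the test. With limma on log2(FPKM + 1) and Benjamini-Hochberg adjustment over 14722 genes (called at an adjusted p under 0.05), 7 of the 8 members were called higher and 0 lower, where 3.84% of all genes tested were called higher. The members' median log2 difference was 2.46, against −0.08 over all genes tested, but Cybb and Ncf4 reached the minimum mean of 1 FPKM through their level after CFA alone. In bulk tissue, more cells of a type and more RNA per cell cannot be told apart.

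Of the membrane subunits, Cybb (ENSRNOG00000003622) stood at 19, 18.5 and 18.6 FPKM in thalamus CFA, and at 0.799, 0.335 and 0.353 FPKM in thalamus saline. The CFA libraries were alike and lay far above all saline libraries, where Cybb rested on 68, 23 and 25 reads. The means were 18.7 ± 0.243 FPKM after CFA and 0.496 ± 0.263 FPKM after saline (SD, n = 3 each), a log2 difference of 3.73 ± 0.15 (SE; 95% interval 3.38 to 4.08; limma adjusted p = 0.000212). By p, Cybb ranked 8 among all genes tested and Ncf1 ranked 4. Cyba (ENSRNOG00000013014), which stabilizes Cybb in the membrane, reached 56.9, 45 and 41.7 FPKM after CFA, against 8.97, 7.71 and 6.61 FPKM after saline. Its groups did not overlap, and the log2 difference was 2.48 ± 0.16 (limma adjusted p = 0.000764).

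The cytosolic subunits and Rac2 rose as well. Ncf1 (ENSRNOG00000001480), the organizer that carries the cytosolic subunits to the membrane, gave 25.9, 23.5 and 20.8 FPKM in CFA libraries and 2.16, 2.14 and 2.24 FPKM in saline libraries. The saline values lay within 0.0538 FPKM of SD, and the log2 difference was 2.93 ± 0.11 (limma adjusted p = 0.000212). Ncf4 (ENSRNOG00000006940), which binds a phosphoinositide of the phagosome membrane, gave 9.11, 5.78 and 7.85 FPKM in CFA libraries and 0.806, 0.583 and 0.323 FPKM in saline libraries. These were the lowest levels among the 8 genes after CFA, and the saline values came from only 24, 14 and 8 reads. Its log2 difference was 2.44 ± 0.2 (limma adjusted p = 0.00194), and with limma-voom on reads, which adds no pseudocount of 1 FPKM, it was 3.92 (adjusted p = 0.00717). Rac2 (ENSRNOG00000007350), the GTPase that switches the assembled oxidase on, gave 29.8, 19.5 and 27.3 FPKM in CFA libraries and 2.66, 1.88 and 2.31 FPKM in saline libraries. The lowest CFA library, library 2, was still far above the highest saline library, with a log2 difference of 3 ± 0.18 (limma adjusted p = 0.000703).

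The 3 antioxidant genes did not move alike. Hmox1 (ENSRNOG00000014117) gave 25, 12.8 and 27.8 FPKM in thalamus CFA libraries, against 4.85, 5.37 and 4.94 FPKM in thalamus saline libraries. Library 2 was again the lowest of the CFA group, as for Ncf4, Rac2 and, by a narrow margin, Cybb, and the groups did not overlap. The log2 difference was 1.85 ± 0.28 (limma adjusted p = 0.016). Leaving out CFA library 1 or saline library 1, 2 or 3 ended the Hmox1 call, with limma adjusted p = 0.063, 0.0513, 0.0696 and 0.0801 and log2 differences of 1.72 to 1.89. Gpx1 (ENSRNOG00000048812), a selenium enzyme, gave 210, 142 and 149 FPKM in CFA libraries, against 78.1, 93.5 and 94.7 FPKM in saline libraries. Library 1 set most of the spread in the CFA group, and each CFA library lay above each saline library. The log2 difference was 0.89 ± 0.17 (limma adjusted p = 0.0456), a call that was also lost without CFA library 2 or 3 or any saline library (limma adjusted p = 0.069 to 0.142), without the low-value filter (0.0704), at a filter of 5 FPKM (0.0607) and with a replicate block (0.0589). Sod2 (ENSRNOG00000019048) gave 112, 135 and 148 FPKM in CFA libraries and 99.9, 122 and 122 FPKM in saline libraries. Those ranges overlapped, with a log2 difference of 0.20 ± 0.14 (95% interval −0.14 to 0.54; limma adjusted p = 0.427). It was 0.36 with libraries rescaled to the same FPKM total and 0.38 with limma-voom (limma adjusted p = 0.18 and 0.17).

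**Figure D1:**
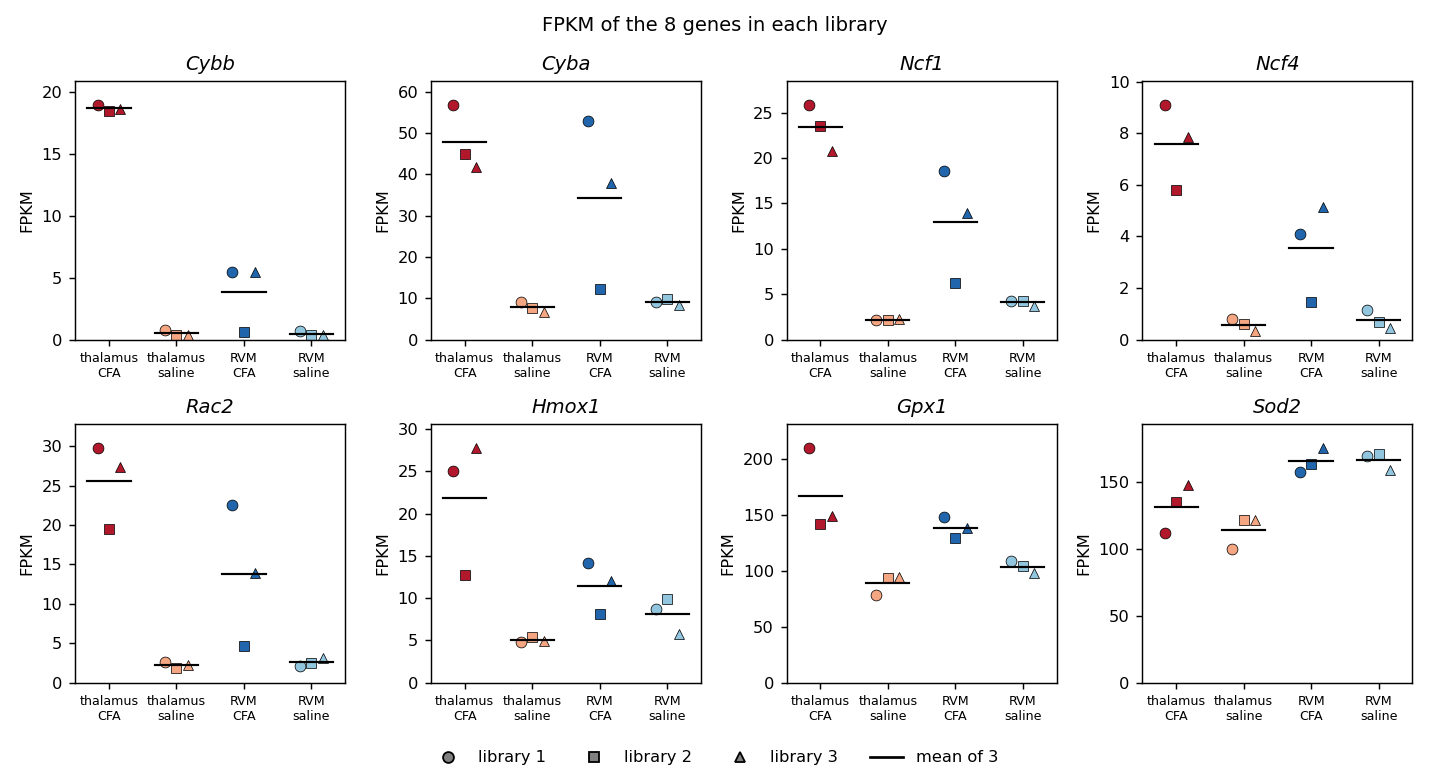
FPKM of each of the 8 genes (linear axes from 0) in the 3 libraries of thalamus CFA, thalamus saline, RVM CFA and RVM saline; symbols mark the library number and lines the mean of 3. The 5 oxidase genes are far higher in all 3 thalamus CFA libraries than in thalamus saline, RVM CFA library 2 lies well below RVM CFA libraries 1 and 3 for these genes, and Sod2 overlaps between CFA and saline in both regions.

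In 7 of the 8 members every thalamus CFA library lay above every thalamus saline library, a pattern that 12.2% of all genes tested showed. Without the choroid-rich CFA libraries 1 and 2, which leaves a single CFA library that is assumed to vary like the others, Cybb, Cyba, Ncf1, Rac2 and Hmox1 were still called (limma adjusted p = 0.0307 to 0.0492), where 0.448% of all genes tested were called higher. Ncf4 and Gpx1 were not, with log2 differences of 2.51 and 0.75 (limma adjusted p = 0.067 and 0.256). The oxidase genes Cybb, Cyba, Ncf1, Ncf4 and Rac2 kept their calls whichever of the 6 libraries was left out. The number of genes called over the whole table was 605, and 394, 321 and 309 when CFA library 1, saline library 2 or saline library 3 was left out.

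In the RVM the oxidase genes were far above saline in CFA libraries 1 and 3 but not in CFA library 2, and no member was called. The ratio of mean FPKM, CFA over saline, was 7.93 for Cybb, 5.22 for Rac2, 4.7 for Ncf4, 3.77 for Cyba and 3.16 for Ncf1, while Hmox1 stood at 1.4, Gpx1 at 1.33 and Sod2 at 0.997. By limma 0 of 14289 genes were called, so that the share called higher was 0% for members and background alike. At an unadjusted p under 0.05 there were 2030 genes, and limma-voom on reads likewise called 0, with 1860 at an unadjusted p under 0.05.

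Cybb gave 5.48, 0.649 and 5.43 FPKM in RVM CFA libraries, against 0.679, 0.385 and 0.395 FPKM in RVM saline libraries. Library 2 of the CFA group fell inside the saline range, at 1.33 times the saline mean, whereas libraries 1 and 3 were at 11.3 and 11.2 times. The log2 difference was 1.47 ± 0.52 (95% interval 0.23 to 2.71; limma adjusted p = 0.295), and 2.48 with limma-voom on reads (0.492). Cyba gave 52.9, 12.3 and 37.8 FPKM after CFA and 9.17, 9.89 and 8.25 FPKM after saline, and Ncf1 gave 18.6, 6.26 and 13.9 FPKM after CFA and 4.25, 4.28 and 3.75 FPKM after saline. For both subunits CFA library 2 was the lowest of its group yet above all saline libraries, at 1.35 and 1.53 times the saline mean. Their log2 differences were 1.59 ± 0.47 for Cyba (limma adjusted p = 0.257) and 1.34 ± 0.34 for Ncf1 (0.242).

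Ncf4 gave 4.08, 1.46 and 5.14 FPKM in RVM CFA libraries and 1.16, 0.671 and 0.444 FPKM in RVM saline libraries. Rac2 gave 22.6, 4.68 and 13.9 FPKM in RVM CFA libraries and 2.18, 2.53 and 3.19 FPKM in RVM saline libraries. Library 2 was again the lowest of the CFA group, at 1.92 times the saline mean for Ncf4 and 1.78 times for Rac2. The log2 differences were 1.29 ± 0.35 for Ncf4 (limma adjusted p = 0.247; 2.13 with limma-voom on reads, 0.328) and 1.80 ± 0.48 for Rac2 (0.242).

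Among the antioxidant genes of the RVM, Gpx1 gave 148, 129 and 138 FPKM in CFA libraries and 109, 104 and 97.7 FPKM in saline libraries. Its small difference was even across libraries, including CFA library 2, and the groups did not overlap. The log2 difference was 0.41 ± 0.07 (limma adjusted p = 0.242), and Gpx1 ranked 36 by p among all genes tested. Hmox1 gave 14.2, 8.1 and 12 FPKM in CFA libraries and 8.71, 9.89 and 5.82 FPKM in saline libraries, which overlapped (log2 difference 0.44 ± 0.24, limma adjusted p = 0.453). Sod2 gave 158, 164 and 176 FPKM in CFA libraries and 170, 171 and 159 FPKM in saline libraries. The interval of its log2 difference, −0.15 to 0.14 around −0.01, was narrow (limma adjusted p = 0.983).

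In 5 of the 8 members, Cyba, Ncf1, Ncf4, Rac2 and Gpx1, every RVM CFA library lay above every RVM saline library, against 7.27% of all genes tested. Without RVM CFA library 2, 6 of the 8 members were called higher, all but Hmox1 and Sod2, where 2.78% of 14264 genes tested were. The library left out there is the CFA library in which the 5 oxidase genes were lowest, and leaving out CFA library 1 or 3 or any saline library gave 0 members called. Cybb and Ncf4 reached the minimum mean through their level after CFA alone in RVM as well. Without RVM CFA library 2 the log2 differences were 2.13 ± 0.15 for Cybb (limma adjusted p = 0.00259), 2.18 ± 0.15 for Cyba (0.00259), 1.75 ± 0.14 for Ncf1 (0.00315), 1.69 ± 0.21 for Ncf4 (0.0132), 2.38 ± 0.22 for Rac2 (0.0049) and 0.46 ± 0.07 for Gpx1 (0.0262). That library also had the lowest microglia marker sum of the RVM CFA group, and the part of this sum in the members' low values was not tested.

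**Figure D2:**
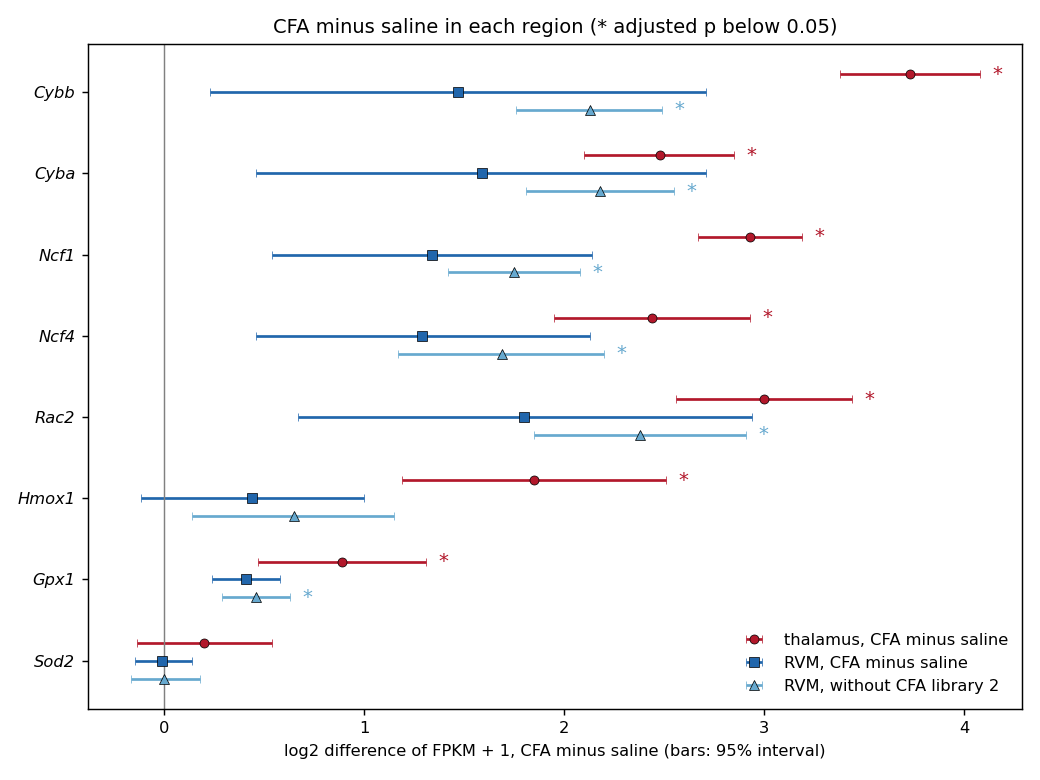
Log2 difference of FPKM + 1, CFA minus saline, for the 8 genes, with 95% intervals from limma: thalamus (red circles), RVM with all libraries (blue squares) and RVM without CFA library 2 (light blue triangles). Stars mark an adjusted p under 0.05, which 7 genes have in thalamus, 0 in RVM with all libraries and 6 in RVM without CFA library 2; the RVM intervals shorten when that library is left out.

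Whether CFA moved the members more in thalamus than in RVM was tested as the interaction of region and treatment over all 12 libraries. By limma 0% of 13738 genes passed in either direction, members included, with 1560 genes at an unadjusted p under 0.05, and limma-voom on reads also called 0, with 1451. All 8 estimates were above 0, that is, a larger CFA difference in thalamus. Cybb had the largest, at 2.26 ± 0.6 log2 (95% interval 0.94 to 3.59; limma adjusted p = 0.337), then Ncf1 at 1.59 ± 0.39 (adjusted p = 0.315) and Hmox1 at 1.41 ± 0.4 (adjusted p = 0.337). Cyba, at 0.89 ± 0.56 log2, had an interval of −0.34 to 2.12, and Sod2, at 0.20 ± 0.16, had one of −0.14 to 0.55. Without RVM CFA library 2 the difference was 1.61 ± 0.2 log2 for Cybb (limma adjusted p = 0.085), 1.18 ± 0.18 for Ncf1 (0.134) and 0.29 ± 0.24 for Cyba (0.73).

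By group mean, thalamus CFA was the highest and RVM CFA the next for all members other than Sod2. These CFA groups overlapped for Cyba, Rac2, Hmox1 and Gpx1. For Cybb they did not, with 18.5 FPKM as the lowest thalamus value and 5.48 as the highest RVM value. The gap was narrow for Ncf1, at 20.8 against 18.6 FPKM, and for Ncf4, at 5.78 against 5.14 FPKM. How many of all genes had such a gap between the CFA groups was not counted. Cybb averaged 18.7 ± 0.243 FPKM in thalamus CFA, 0.496 ± 0.263 in thalamus saline, 3.86 ± 2.78 in RVM CFA and 0.486 ± 0.167 in RVM saline (SD, n = 3 each), and its saline groups lay within each other's spread. Gpx1 averaged 167 ± 37.6 FPKM in thalamus CFA, 88.8 ± 9.27 in thalamus saline, 138 ± 9.75 in RVM CFA and 104 ± 5.86 in RVM saline. Sod2 had another order, with 132 ± 18.5 FPKM in thalamus CFA and 114 ± 12.6 in thalamus saline, below 166 ± 9.27 in RVM CFA and 167 ± 6.5 in RVM saline.

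Between the saline groups, which also serve as the controls of the CFA comparisons, 6 members were high enough to test, and 0 of these were called higher and 3 lower in thalamus than in RVM. Of all 14396 genes tested 22.6% were called higher and 22.7% lower. Ncf1 was lower in thalamus, at 2.18 ± 0.0538 FPKM, than in RVM, at 4.09 ± 0.297 FPKM (SD, n = 3 each; log2 difference −0.68 ± 0.1, limma adjusted p = 0.00253), but not with all 12 libraries in a single model (adjusted p = 0.0688). Sod2 differed by −0.54 ± 0.09 log2 (limma adjusted p = 0.00454), and by −0.36 with libraries rescaled to the same FPKM total (0.00939). Hmox1 differed by −0.57 ± 0.18 log2 (limma adjusted p = 0.038), a call that ended when any saline library other than RVM saline 3 was left out (adjusted p = 0.0685 to 0.118), without the low-value filter (0.0687), with libraries rescaled to the same FPKM total (0.0819), with limma-voom (0.0757) and with all 12 libraries in a single model (0.123). Cyba, Rac2 and Gpx1 differed by −0.21, −0.14 and −0.23 log2 and did not pass (limma adjusted p = 0.205, 0.486 and 0.095), and rescaling to the same FPKM total brought these to −0.05, −0.01 and −0.04. That rescaling moved the median of all genes to 0.14 log2, against −0.02 as deposited, and the share of calls that were higher in thalamus to 69.5%, against 49.8%.

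The make-up of the oxidase transcripts differed between groups. FPKM is scaled for gene length, so levels of different genes can be set side by side. Cyba was the most abundant of the 5 oxidase genes in every library, and Cybb stood at 33.3, 41.1 and 44.6% of Cyba FPKM in thalamus CFA, against 8.91, 4.35 and 5.34% in thalamus saline. In RVM CFA it stood at 10.4, 5.26 and 14.4% of Cyba, against 7.4, 3.9 and 4.79% in RVM saline. The thalamus groups were far apart, while RVM CFA library 2 lay within the RVM saline range. As a share of the summed FPKM of the 5 genes, Cyba took 35.9 to 40.5% in thalamus CFA, against 55.8 to 61% in thalamus saline. In RVM it took 48.6 to 51% after CFA and 51.5 to 55.7% after saline. Ncf1 was at 49.2 ± 3.39% of Cyba in thalamus CFA and 28.6 ± 5% in thalamus saline, and at 40.9 ± 8.5% in RVM CFA and 45 ± 1.55% in RVM saline (SD, n = 3 each).

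Microglia markers rose beside the oxidase genes. In thalamus 10 of 13 markers were called higher, against 3.84% of all genes tested, with a median log2 difference of 1.65. Among them were Cd68, a lysosomal protein of phagocytes (3.80), the complement subunits C1qc (3.14) and C1qb (2.82), and the adaptor Tyrobp (2.89). Cd68, at a mean of 0.971 FPKM in thalamus saline, passed the filter through its level after CFA alone. Without thalamus CFA libraries 1 and 2, 4 of the 13 were called. The 13 markers summed to 1515, 1174 and 1128 FPKM in thalamus CFA and 255 to 295 FPKM in thalamus saline. Relative to that sum, the 5 oxidase genes together were at 9.28, 9.56 and 10.3% in thalamus CFA, against 5.22, 4.82 and 4.64% in thalamus saline, so the oxidase sum differed more than the marker sum. In RVM these percentages were 7.14, 5.62 and 6.22 after CFA and 5.28, 6.34 and 5.93 after saline, and the groups overlapped. The part of microglia number in the oxidase levels was not tested.

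**Figure D3:**
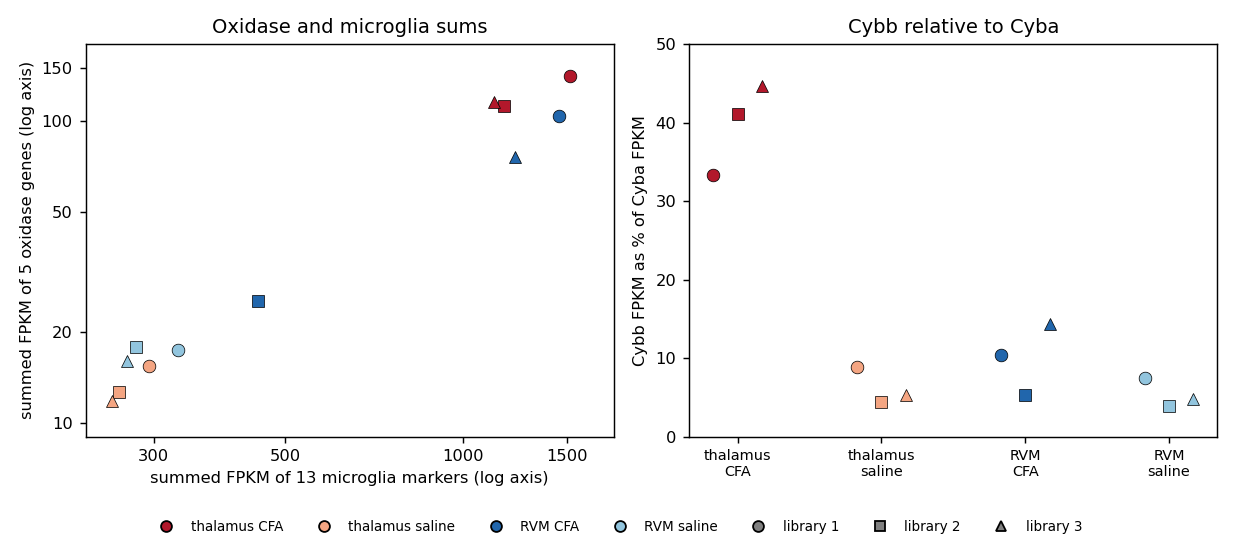
Left, summed FPKM of the 5 oxidase genes against summed FPKM of 13 microglia markers (both axes log) in each of the 12 libraries; right, Cybb FPKM as a percentage of Cyba FPKM in each library. RVM CFA library 2 (dark blue square) lies between the other CFA libraries and the saline libraries on the left, and the thalamus CFA libraries, at 33.3 to 44.6%, stand apart from all other libraries on the right.

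Lists of neutrophil and monocyte markers were also higher in thalamus after CFA, and they followed the oxidase genes from library to library only in part. The 5 oxidase genes summed to 141, 112 and 116 FPKM in thalamus CFA libraries 1 to 3, and to 104, 25.4 and 76.2 FPKM in RVM CFA. Of the 9 neutrophil markers 3 passed the filter, all through their level after CFA. The 3 were called higher in thalamus, against 3.84% of all genes tested. They were the calprotectin genes S100a9 (log2 3.17) and S100a8 (2.58) and the receptor Csf3r (1.80). The 9 summed to 37.8, 12.7 and 29.4 FPKM in thalamus CFA and 1.44 to 1.72 FPKM in thalamus saline. The lowest CFA value was in library 2, as for Cybb, Ncf4, Rac2, Hmox1 and Gpx1, but not for Cyba, Ncf1 and Sod2. In RVM CFA libraries 1 to 3, S100a8 stood at 2.35, 2.17 and 2.23 FPKM and S100a9 at 2.1, 2.27 and 5.68 FPKM. Csf3r stood at 3.36, 1.05 and 3.97 FPKM there, so only Csf3r of these was far lower in library 2. The granule enzyme genes Mpo and Elane, which neutrophils make as they mature, averaged 0.0319 and 0.0959 FPKM in thalamus CFA. The other neutrophil markers under the filter were low as well. Cxcr2 averaged 0.702 FPKM in thalamus CFA and 0.0127 in thalamus saline, and Mmp8 0.36 and 0.0151. All CFA libraries lay above all saline libraries for both. Camp averaged 0.505 FPKM in thalamus CFA and 0.273 in thalamus saline, and Ltf 0 and 0.00607. Monocyte markers summed to 647, 692 and 585 FPKM in thalamus CFA, highest in library 2, against 23.4 to 39.2 FPKM in thalamus saline. Their sums were 228, 60.4 and 228 FPKM in RVM CFA and 33.1 to 47.9 in RVM saline. Of 4 monocyte markers tested in thalamus 3 were called higher, against 3.84% of all genes. Plac8 differed by 5.03 log2, Lyz2, a lysozyme, by 4.44 and Cd14, a lipopolysaccharide co-receptor, by 3.02, and Mrc1 did not pass (limma adjusted p = 0.0712). Plac8 and Cd14 passed the filter through their level after CFA alone. Without thalamus CFA libraries 1 and 2, 1 neutrophil and 2 monocyte markers were called. Markers of 3 other kinds of cell were measured beside these. The astrocyte gene Gfap was the only one of 7 astrocyte markers called in thalamus, at 2.16 log2 (limma adjusted p = 0.0405). Vascular and meningeal markers summed to 117 to 278 FPKM in thalamus CFA, against 128 to 139 FPKM in thalamus saline, with a median of 1.15 log2 and 0 of 9 called. Neuron markers summed to 1194 to 1771 FPKM in thalamus CFA, against 1813 to 2601 FPKM in thalamus saline, with a median of −0.55 log2 and 0 of 7 called. The part of any of these cells in the oxidase levels was not tested.

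Several other genes tied to the oxidase were low. Hvcn1, the proton channel that balances the oxidase's charge, was called higher in thalamus, at a log2 difference of 1.46 ± 0.2 (limma adjusted p = 0.011). It passed the filter through its level after CFA alone. Hvcn1 averaged 3.91 ± 0.698 FPKM in thalamus CFA and 0.792 ± 0.327 FPKM in thalamus saline (SD, n = 3 each). Cybc1, a chaperone of the membrane subunits, differed by 0.43 ± 0.11 log2 and did not pass (limma adjusted p = 0.0986). Rac1, the widely made relative of Rac2, stood at 112 ± 4.53 FPKM in thalamus CFA and 113 ± 2.56 FPKM in thalamus saline (adjusted p = 0.924), above Rac2 in both. The other catalytic subunits Nox1, Nox3 and Nox4 and the organizer and activator relatives Noxo1 and Noxa1 had group means of at most 0.248 FPKM, so that Cybb was the highest of these catalytic genes in thalamus CFA.

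Of 10 genes that act upstream of oxidase assembly, 4 were called higher and 0 lower in thalamus, against 3.84% of all genes called higher, with a list median of 0.2 log2. Of the 4, Vav1 and Pik3cg passed the filter through their level after CFA alone. Vav1, a Rac exchange factor of blood cells, differed by 2 log2 (limma adjusted p = 0.00232), and Arhgdib, which holds Rac2 inactive, by 1.62 (0.00184). The kinases Pik3cg and Pik3cd, whose lipid products recruit the cytosolic subunits, differed by 1.46 (limma adjusted p = 0.00508) and 0.84 (0.0129). Without thalamus CFA libraries 1 and 2, 1 of these 10 genes was called, and Hvcn1 was not.

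Most other antioxidant genes were not called after CFA. None of 12 superoxide and peroxide enzymes tested in thalamus passed, with a median of 0.02 log2, and those with the smallest p were Prdx1, a peroxiredoxin, at 0.39 ± 0.12 (limma adjusted p = 0.151) and Gpx8, a relative of Gpx1, at 0.81 ± 0.25 (0.161). Of 11 thioredoxin and glutathione genes 0 were called, with a median of 0.01, and Gclc, the catalytic subunit of the first step of glutathione synthesis, differed by −0.47 ± 0.14 (limma adjusted p = 0.138) and Txnrd2 by −0.40 (0.185). Among 9 heme, iron and quinone genes tested, 2 were called higher, against 3.84% of all genes tested. Ftl1, the ferritin light chain, which stores iron, differed by 1.22 ± 0.21 log2 (limma adjusted p = 0.027). Nfe2l2, the gene of the transcription factor NRF2, differed by 0.92 ± 0.17 log2 (limma adjusted p = 0.0378). Neither was called without thalamus CFA libraries 1 and 2. Beside Hmox1, the constitutive isoform Hmox2 averaged 38.6 ± 5.11 FPKM in thalamus CFA and 45.1 ± 6.38 FPKM in thalamus saline (SD, n = 3 each). The ratio of Hmox1 to Hmox2 FPKM was 0.732, 0.344 and 0.629 in thalamus CFA and 0.121, 0.125 and 0.0945 in thalamus saline. In RVM that ratio was 0.252, 0.128 and 0.192 after CFA and 0.126, 0.142 and 0.0858 after saline. In the RVM, 0 genes of any of these lists were called with all libraries in the fit. The ferritin heavy chain Fth1, an abundant transcript in most tissues, is listed at 0 in all 12 libraries, so no level is read from it.

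**Figure D4:**
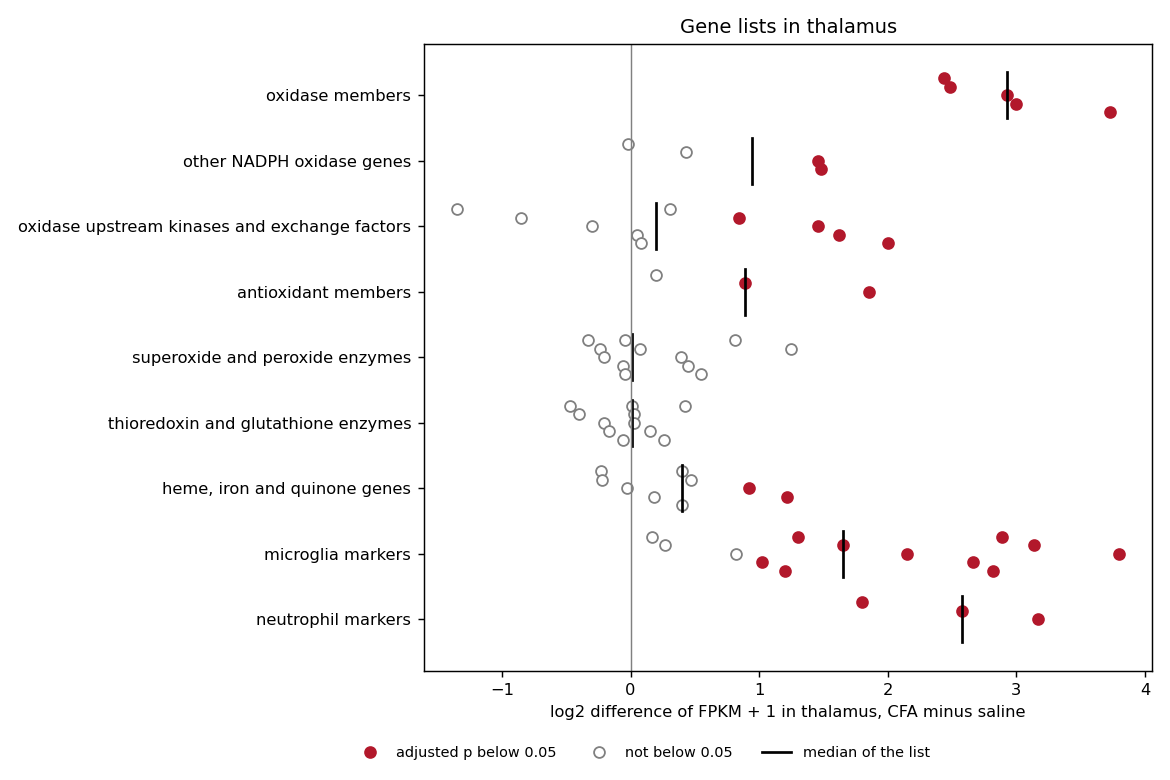
Log2 difference of FPKM + 1 in thalamus, CFA minus saline, for each tested gene of 9 lists; filled points have a limma adjusted p under 0.05, open points do not, and bars mark the list median. The 5 oxidase members lie between 2.44 and 3.73, whereas the superoxide and peroxide enzymes and the thioredoxin and glutathione enzymes centre near 0 with no filled point.

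Across the 12 libraries, the genes whose centred log2 profile was most like that of Cybb were Lyz2, Socs3, a feedback inhibitor of cytokine signalling, and Cd68, with root mean square differences of 0.30, 0.31 and 0.31 log2. For Gpx1 these were Arhgap17, Il1r1, the interleukin receptor, and Fhl3, at 0.11, 0.12 and 0.13 log2. Among the members themselves, Cyba and Ncf1 were the most alike pair, at 0.25 log2, and Cybb and Sod2 the least, at 1.64 log2. Gpx1 and Sod2 were at 0.42 log2, and Gpx1 and Hmox1 at 0.44. Libraries of a group share region and treatment, so these are descriptions with no test.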

How the data were processed

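RNA of 12 libraries was extracted with TRIzol and made into Illumina TruSeq libraries, per the labels' protocols, whose text speaks of retinas although the tissue labels say thalamus and RVM. The kit is not stated to keep strand, so genes that overlap on opposite strands may share reads. The authors deposited FPKM per gene with gene length and position, per the file headers; the build, aligner and annotation count as not given in the sources used here. FPKM times length came out as whole reads for 100% of values under 300 reads (tolerance 0.01). The total the authors divided by was 0.9335 to 1.168 times the recovered one, highest in thalamus CFA. Groups came from tissue and treatment labels.

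Values were tested as log2(FPKM + 1) with limma 3.58.1 (R 4.3.3, trended), leaving out genes whose mean over the libraries compared was under 1 FPKM (in either region, for the difference of CFA effects), and called at a Benjamini-Hochberg adjusted p under 0.05. This scale understates changes of low genes. The fits were run on simulated data with the same dispersion for every gene and no outlying library. That run does not show how they behave with the spread of these libraries. All 12 within-group pairs differed beyond sampling noise (chi-square per degree of freedom 7.44 to 62.3 over genes with 10 or more reads). The members and the 19 lists were chosen with earlier results of these data known; 159 of 165 symbols matched, 2 by NCBI gene number. All members were named; of each other list, those called (at most 4 by p), else the 2 of smallest p; a few genes under this rule are not reported here, and genes named beyond it were chosen after their values were seen. Alternatives were pseudocount 0.1, no filter and 5 FPKM, 2 rescalings, a replicate block, all 12 libraries in a single model, limma-voom on recovered reads and leaving out libraries; limma-voom without RVM CFA library 2 was chosen after seeing the data.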

Additional observations from a re-analysis of the deposited data

How the results depend on the processing

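The count of genes called in thalamus was 605 as reported, 298 at a 5 FPKM filter, 1932 with all 12 libraries in a single model, 66 without both choroid-rich CFA libraries (60 of them among the 605) and 309 to 547 leaving out a library each; of the members, 5 to 6 were then called, against 7. In RVM, 1 gene was called without a filter, 0 to 484 (0 to 6 members) leaving out a library each, and 736 (6 members) with limma-voom without CFA library 2. For the difference of CFA effects, 11 genes were called without a filter and 0 to 15 leaving out a library each, and 0 members in any of these fits. Of the members lower in saline thalamus, 1 was called with all 12 libraries in a single model, against 3. With the geometric mean of the microglia markers, the ratio of oxidase to microglia level, CFA over saline, was 2.47 in thalamus (1.99 with the sum) and 1.34 in RVM (1.08). Sod2 in RVM changed sign, from -0.01 to 0.04 with limma-voom, 0.07 with limma-voom without CFA library 2, and -0.05 to 0.03 leaving out a library each; all these were near 0. Rescaling to equal totals moved the thalamus median of all genes to 0.07 log2, against -0.08, and left the directions of the members as they were.

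With a replicate block, 1338 genes (6 members, Gpx1 lost) were called in thalamus and 29 (0 members) for the difference, and no other member's call changed. Same-numbered libraries correlated at 0.36, 0.06 and 0.27 in thalamus, at -0.03 to -0.01 in RVM and at -0.01 to 0.11 between saline regions, so the numbers were not taken as pairs; not every library correlated best with its own number. Cybb and Ncf4 gave no value at the 5 FPKM filter in RVM or for the difference, nor Ncf4 in thalamus. At 8 to 68 reads, the saline levels of Cybb and Ncf4 set the precision of their folds.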

Other observations

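Of 12 superoxide and peroxide enzymes tested between the saline groups, 8 were called lower in thalamus than in RVM and 0 higher, where 22.7% of all genes were called lower, with a list median of -0.53 log2. The 4 with the smallest p were Prdx1, Prdx3, Prdx6 and Cat. Prdx1, a cytosolic peroxiredoxin, averaged 115 ± 1.5 FPKM in thalamus saline and 291 ± 3.09 FPKM in RVM saline (SD, n = 3 each), a log2 difference of -1.33 ± 0.06 (limma adjusted p = 7.05e-05). Cat, the peroxisomal catalase, averaged 35.3 ± 2.69 FPKM in thalamus saline and 53.9 ± 2.49 FPKM in RVM saline. With libraries rescaled to the same FPKM total, 8 of the 12 were called lower and the list median was -0.36, against 0.14 over all genes.

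Of 8 heme, iron and quinone genes tested, 6 were called lower in saline thalamus and 0 higher, among them Ftl1 (-0.74 log2), Nqo1 (-0.86), Blvrb (-0.63) and Hmox2 (-0.61). Of 11 thioredoxin and glutathione genes, 1 was called higher in thalamus and 2 lower, shares at or under the background of 22.6% called higher and 22.7% lower. Gclc differed by 0.67 log2 and Gss by -0.45. All 6 oligodendrocyte markers were called lower in thalamus as well, with a median of -1.76 log2; their part in these differences was not tested.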
